A study of Rattus norvegicus with 23 samples.

Results

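Infarcted rat hearts that carried an implanted device were compared between 12 and 6 weeks after surgery. The comparison rests on 11 of the 23 libraries of the series, 6 from 12 weeks and 5 from 6 weeks. All rats were Sprague-Dawley and had the left coronary artery ligated through a left thoracotomy (myocardial infarction, MI). In the group called MI+TRD a second operation then implanted the device, which the labels name TRD and do not describe further. MI without the device, with 6 libraries at each of the same times, is given beside it, so every group used here carries an infarct and none is free of surgery. Sex and age of the rats, the position of the tissue relative to the scar and identifiers of single animals are not given in the labels used here. For each gene, the authors' MI+TRD mean at 12 weeks was divided by the authors' MI+TRD mean at 6 weeks, in normalized counts. Of the 11283 genes in both of the authors' tables, the 9986 with both means of at least 1 were kept. The log2 ratio was centred by subtracting its median over these genes, −0.09, and such a centred value is called the time change below. A gene counts as higher or lower at 12 weeks when it changed by at least 2-fold.

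After a coronary artery is tied off, the dead muscle is replaced by a scar that activated fibroblasts fill with fibrillar collagen and matricellular proteins such as periostin. Monocytes and macrophages clear the debris and signal to the fibroblasts, and as the scar matures both cell states are known to wane. The surviving heart muscle enlarges, draws on fetal and natriuretic genes, and shifts between fatty acids and glucose as fuel.

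The 6-week group entered as a mean only, so its spread is unknown and no replicate test across time could be made. The 12-week spread is shown by the 6 libraries, brought to the scale of the authors' 12-week mean by 1 factor each (0.953 to 1.08). Low values within a library were whole multiples of its smallest value, and taking that smallest value as no read gave between 7197121 and 10156575 reads per library. The 2 times stand in separate tables, so time, processing and scaling of a table cannot be told apart. Replicate 6 stood apart from the other 5 libraries at 12 weeks: 130 genes lay at least 2-fold below the 6-week mean in it, against 546 to 1287 in the others. Replicates 1, 4 and 5 shared low values of short genes: genes spanning under 5 kb had median time changes of −0.58, −0.50 and −0.47 in them, against −0.04, −0.19 and −0.07 in replicates 2, 3 and 6. Genes close to the minimum were noisier. The 539 genes whose smaller mean lay between 1 and 1.5 had an SD of the time change of 0.57, and the 764 genes just outside, from 0.5 to below 1, one of 0.67, against 0.45 over all genes kept.

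More genes were lower at 12 weeks than were higher. In MI+TRD, 209 of 9986 genes were at least 2-fold lower (2.09%) and 98 were at least 2-fold higher (0.981%). In MI the same rule gave 54 of 10017 lower (0.539%) and 26 higher (0.26%). The MI+TRD shares over all genes, 2.09% and 0.981%, stand as background for the called list members counted below. All 6 libraries at 12 weeks lay below the 6-week mean for 127 of the 209 lower genes and above it for 72 of the 98 higher genes. Over all genes with values per library, all 6 lay above the 6-week mean in 12.2% and below it in 11.8% in MI+TRD, and in 7.09% and 10.2% in MI. Without centring the counts were 299 lower and 67 higher. Replicate 6 held the number of lower genes down: without it 556 were lower and 150 higher, while without replicates 1, 4 and 5 there were 102 and 55. Leaving out replicates 1, 4 and 5 also gave replicate 6 more weight in the 12-week mean. Of the 66 called genes named in the text, 27 then came under 2-fold. These were Adra1a, Arhgap26, Lifr, Nfib and Ryr2 among the higher and Adamts4, C1qa, C4a, Ccl7, Ccnb2, Cdk1, Ciart, Ciita, Egr2, Ftl1, Hmox1, Igfbp6, Krt18, Krt8, Mmp2, RT1-DMa, Rps28, Rrm2, Socs3, Tpsab1, Trem2 and Tyrobp among the lower. Most of the called genes lay on the same side in MI, which shares no library with MI+TRD but shares the tables. Of the 181 lower genes with an MI value, 173 had a lower MI mean too, 16 of them by at least 2-fold. Of the 97 higher genes with an MI value, 82 had a higher MI mean, 10 by at least 2-fold. The median MI time change was −0.52 over the lower and 0.44 over the higher genes. Across genes the MI+TRD and MI time changes had a Pearson's r of 0.47, given as a description because genes are not independent replicates.

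**Figure D1:**
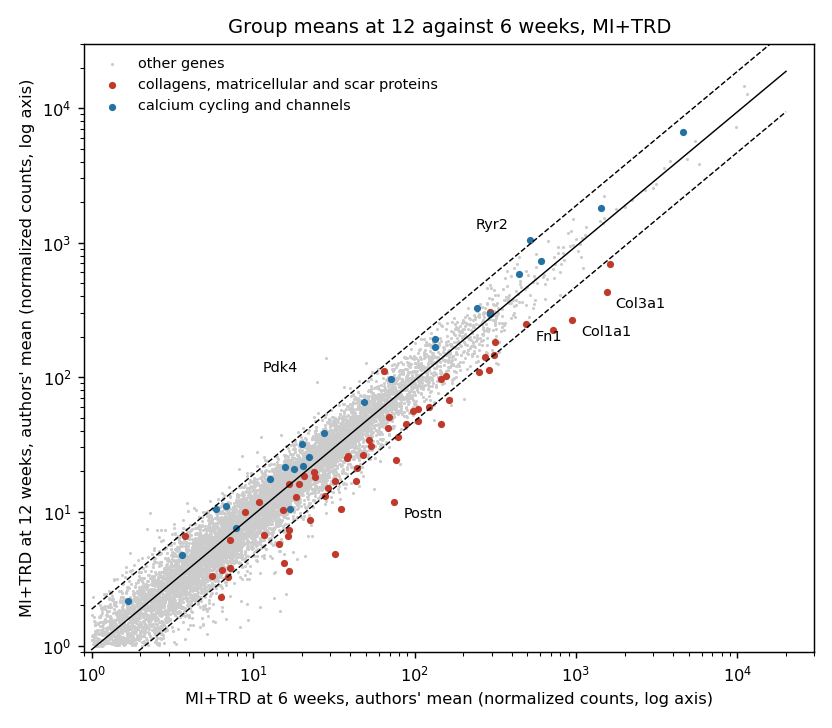
Authors' mean normalized count of each gene in MI+TRD at 12 weeks (y axis, log) against 6 weeks (x axis, log), 9986 genes. The solid line is the median gene and the dashed lines are 2-fold to either side. The matrix genes (red) lie mostly below the solid line, with Postn, Col1a1 and Col3a1 below the lower dashed line, while most calcium cycling genes (blue) lie above it.

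Scar genes were among those lower at 12 weeks. Periostin (Postn, chromosome 2, 143656845 to 143688088, rn6), a matricellular protein of activated fibroblasts, had a 6-week mean of 75.1 normalized counts. At 12 weeks its values in replicates 1 to 6 were 3.13, 9.94, 2.73, 1.77, 11.0 and 41.7, a mean of 11.7 ± 15.2 (SD, n = 6). All 6 lay below the 6-week mean, the highest being replicate 6, and the time change was −2.59, or 6.02-fold lower, and −3.63 without replicate 6. In MI the Postn mean was 7.92 at 6 weeks and 5.46 at 12 weeks. By group mean MI+TRD at 6 weeks lay above the other 3 groups, but how its single hearts spread is unknown.

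The main fibrillar collagens were lower at 12 weeks as well. Col1a1 (chromosome 10, 82745801 to 82762791), the first chain of type I collagen, had a 6-week mean of 945 and 12-week values of 109, 99.1, 90.4, 82.7, 203 and 1022. Replicate 6 alone lay above the 6-week mean; the time change was −1.73 with it and −2.93 without it. Col3a1 (chromosome 9, 52023295 to 52059222), type III collagen, had a 6-week mean of 1546 and 12-week values of 307, 331, 237, 255, 508 and 940, all below the 6-week mean, with a time change of −1.76. Col1a2, the partner chain of Col1a1, went from a mean of 721 to values of 127, 133, 115, 114, 274 and 582, a time change of −1.60. Without the device the means were lower to begin with: 229 at 6 weeks and 117 at 12 weeks for Col1a1, and 615 and 348 for Col3a1.

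Of 28 collagens and collagen-processing genes compared, 12 were at least 2-fold lower and none was higher. The median time change of this list was −0.88, against 0 over all genes by centring and −0.34 for the list in MI, and all 6 libraries lay below the 6-week mean for 20 members. The list's median in replicates 1 to 6 was −1.1, −0.92, −1.26, −1.29, −1.02 and −0.25, so it was lower in each library and least so in replicate 6. Lysyl oxidase (Lox), which cross-links collagen, had a 6-week mean of 7.15 and 12-week values of 2.07, 2.05, 1.73, 0.996, 2.95 and 13.1. It was not called, at −0.82 with replicate 6 and −1.78 without it.

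Among 33 matricellular and scar proteins 13 were lower and none higher, with a median of −0.72 (−0.51 in MI). Wisp2, a member of the CCN family of secreted matricellular proteins, had a 6-week mean of 32.2 and 12-week values of 0.530, 4.95, 2.44, 1.83, 13.9 and 5.16, all below it, and a time change of −2.65, or −3.33 without replicate 5. Sfrp2, a secreted modulator of Wnt signalling, went from 16.8 to 3.58 ± 3.26 (SD, n = 6), a time change of −2.14, again with all 6 libraries below. Fibronectin (Fn1), the provisional matrix of wound healing, depended on 1 library. Its 6-week mean was 494 and its 12-week values were 22.8, 47.6, 25.0, 24.8, 58.0 and 1301. The other 5 libraries lay between 22.8 and 58.0, near the MI mean of 24.9 at 12 weeks, and replicate 6 alone lay above the 6-week mean. The Fn1 time change was −0.91 with replicate 6 and −3.71 without it.

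Matrix-cutting enzymes were lower in the list median as well. Of 23 proteases and inhibitors 4 were lower, against 2.09% over all genes, and none higher, with a median of −0.58 (−0.17 in MI). Of these members 18 lay below the median gene and 5 above it, and 5 had all 6 libraries below the 6-week mean. The list's median in replicate 6 was −0.16. Mmp14, the membrane protease that activates Mmp2, had a 6-week mean of 45.6 and 12-week values of 14.6, 11.0, 11.7, 9.24, 13.6 and 33.2, a time change of −1.46. Mmp2, the type IV collagenase known as gelatinase A, had 168 at 6 weeks and 59.0, 81.8, 63.2, 38.6, 76.9 and 97.1 at 12 weeks, a time change of −1.19. For both genes no 12-week library reached the 6-week mean, and for Mmp2 the MI means were 91.8 and 87.1. Adamts4, an aggrecanase, had a time change of −1.12 in MI+TRD and 0.46 in MI. Timp1, an inhibitor of these enzymes, was not called at −0.90, with 12-week values from 1.27 to 42.3 around a 6-week mean of 25.2.

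The fibroblast markers split. Of 16 compared, 4 were lower and none higher, with a median of −0.40 (−0.10 in MI). Of these markers 12 lay below the median gene and 4 above it, up to 0.61, and 3 had all 6 libraries below the 6-week mean. The members named here are those with the largest changes. Thy1, a surface marker of fibroblasts, went from 13.4 to 2.28 ± 2.25 (SD, n = 6), a time change of −2.47 (−3.18 without replicate 6), with all 6 libraries below the 6-week mean. Cthrc1, a marker of matrix-producing fibroblasts after injury, had a 6-week mean of 6.78 and 12-week values of 0.106, 0.213, 0.0959, 0.111, 0.778 and 8.26; its time change was −2.0, and −4.62 without replicate 6. C1qtnf6, a secreted protein of the C1q and TNF family and not a member of this list, had a time change of −1.86 (−2.60 without replicate 6). Its values were 2.92, 2.13, 2.11, 2.05, 1.27 and 10.3 against a 6-week mean of 13.5. In such bulk tissue, fewer fibroblasts and less matrix RNA per fibroblast cannot be told apart.

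The TGF-beta list as a whole lay close to the median gene. Of 22 members 1 was lower, the latent TGF-beta binding protein Ltbp2 (35.3 at 6 weeks; 2.28, 13.8, 5.23, 5.26, 19.4 and 17.0 at 12 weeks; time change −1.66), and the median was −0.10. Tgfb2, a ligand of the pathway, had a mean of 17.2 at 6 weeks and 19.6 ± 12.3 (SD, n = 6) at 12 weeks, a time change of 0.28 that was −0.05 without replicate 5. The basement membrane was little different, with a median of −0.14 over 10 members. Col18a1 was its only called member, at −1.01, and Col4a1, the main collagen of basement membranes, had a time change of −0.43.

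**Figure D2:**
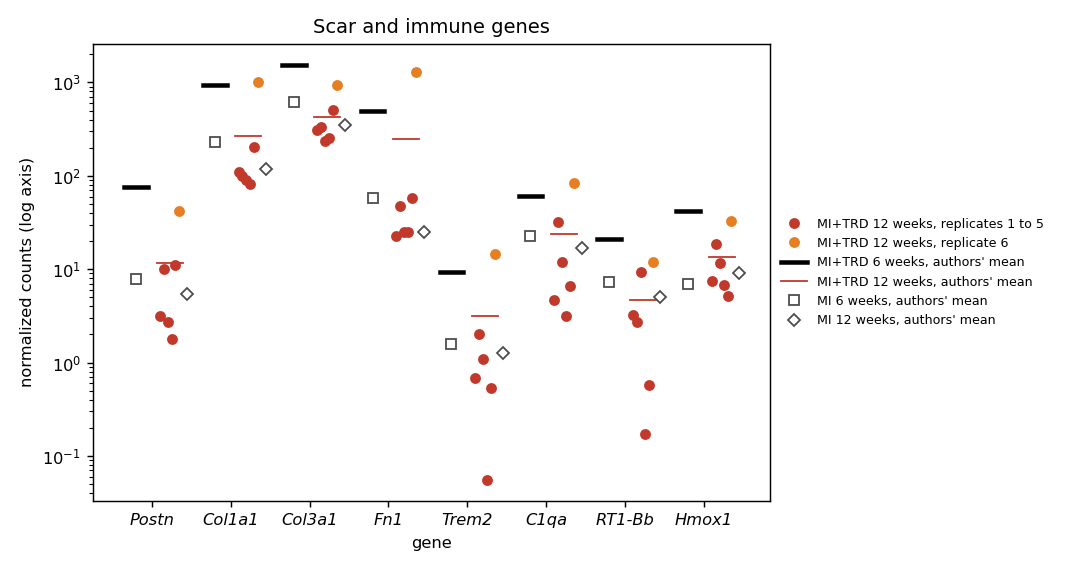
Normalized counts (log axis) of 8 scar and immune genes. Black bars are the authors' MI+TRD means at 6 weeks, filled circles the 6 MI+TRD libraries at 12 weeks with replicate 6 in orange, thin red bars their means, and open squares and diamonds the MI means at 6 and 12 weeks. Replicate 6 is the highest library for each of the 8 genes, and for Fn1 it stands at 1301 against 22.8 to 58.0 in the others.

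Macrophage markers were lower on average, with a wide spread between libraries. Of 27 macrophage and monocyte markers 6 were lower and none higher, and the median time change was −0.78 (−0.40 in MI). The list's median in replicates 1 to 6 was −3.43, −0.95, −2.12, −3.01, −2.20 and 1.11, so 5 libraries lay below the 6-week mean and replicate 6 above it. No member had all 6 libraries on 1 side. The median was −2.29 without replicate 6 and 0.08 without replicates 1, 4 and 5, so it is set by which libraries are counted. Trem2, a lipid-sensing receptor of macrophages in injured tissue, had a 6-week mean of 9.39 and 12-week values of 0.690, 2.0, 1.1, 0.0553, 0.533 and 14.4, with a time change of −1.49, or −3.34 without replicate 6. The value of replicate 4 is the smallest that library holds and stands for no read. C1qa, a chain of complement C1q made by tissue macrophages, had 61.0 at 6 weeks and 4.72, 32.1, 12.1, 3.15, 6.64 and 84.2 at 12 weeks, a time change of −1.27, or −2.29 without replicate 6. Tyrobp, the adaptor that Trem2 signals through, had the same −1.27, and −2.52 without replicate 6.

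Mast cell genes were among the lowest of all. Of 8 neutrophil and mast cell markers compared 5 were lower, and the median was −1.18, against −0.18 in MI. The list's median in replicates 1 to 6 was −3.52, −1.10, −1.34, −2.53, −1.98 and −0.16. Under the alternatives of processing given below it was as weak as −0.50. Mast cell chymase (Cma1) had a 6-week mean of 8.35 and 12-week values of 0.212, 1.07, 1.29, 0.277, 0.492 and 4.97, all below it, a time change of −2.50 (−3.56 without replicate 6). The mast cell protease Mcpt1l1, which belongs to a family of close copies that may share reads, had a time change of −2.0 and the tryptase Tpsab1 one of −1.66 (−2.25 without replicate 6). In MI these changes were −1.31 for Cma1, −1.14 for Mcpt1l1 and 0.01 for Tpsab1. Lipocalin 2 (Lcn2), an iron-scavenging protein of neutrophils and stressed tissue, went from 21.8 to 6.55 ± 5.35 (SD, n = 6), a time change of −1.64.

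Complement and antigen presentation were lower too. Of 25 complement and coagulation genes 4 were lower and none higher, with a median of −0.78 (−0.34 in MI), but this list holds the C1q chains and its median in replicate 6 was 0.38. The median of this list was as weak as −0.12 under the alternatives of processing given below. C4b and C4a encode near-identical complement C4 proteins that may share reads. C4b had a 6-week mean of 80.9 and 12-week values of 4.93, 29.9, 16.1, 3.57, 39.4 and 41.5, all below it, with a time change of −1.75 in MI+TRD and −1.72 in MI. C4a had −1.32 in MI+TRD (−2.03 without replicate 6), where the 12-week values ran from 6.63 to 363 around a 6-week mean of 331, and −3.54 in MI. Of 34 interferon and antigen presentation genes 5 were lower and none higher, with a median of −0.66 (−0.39 in MI) and medians between −1.14 and −0.22 in the 6 libraries. RT1-Bb, a class II MHC chain from a family of similar genes, had 21.0 at 6 weeks and 3.24, 2.72, 9.40, 0.171, 0.574 and 12.0 at 12 weeks, all below it, a time change of −2.07. RT1-DMa, which loads peptide onto class II, and Ciita, the class II transactivator, had −1.21 and −1.14; without replicate 6 these were −2.59 and −2.07. The immunoproteasome subunits Psmb9 and Psmb8 were not called, at −0.70 and −0.67.

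Serpina3n, an acute phase protease inhibitor, had a 6-week mean of 16 and 12-week values of 0.159, 0.725, 1.01, 0.553, 9.05 and 3.0, all below it, a time change of −2.63 (−3.77 without replicate 5). Reg3b, a lectin induced by injury, had 11.0 at 6 weeks and 0.424, 7.46, 1.25, 0.0553, 0.287 and 2.27 at 12 weeks, a time change of −2.40 (−3.59 without replicate 2). The Reg3b value of replicate 4 is the smallest of that library and stands for no read. Heme oxygenase 1 (Hmox1), which breaks down heme and is strong in macrophages, differed in direction from MI. Its 6-week mean was 41.8 and its 12-week values were 7.43, 18.6, 11.6, 6.69, 5.12 and 32.6, all below it, for a time change of −1.52, while MI went from 6.92 to 9.18, a time change of 0.35. Ferritin light chain (Ftl1), which stores iron, had −1.22, and −1.83 without replicate 6. Of 27 chemokines and cytokines 2 were lower, Ccl21 at −1.85 (a ligand that draws lymphocytes and dendritic cells) and Ccl7 at −1.42 (a monocyte attractant), and 1 was higher, Cxcl2. Cxcl2, a neutrophil attractant, was at 1.67 with 1 library far above the rest: its values were 0.0530, 3.03, 3.21, 0.277, 1.27 and 61.9 against a 6-week mean of 3.89, and without replicate 6 the change was −1.23. The Cxcl2 value of replicate 1 likewise stands for no read. Osteoprotegerin (Tnfrsf11b), a decoy receptor for RANKL, had 15.8 at 6 weeks and 3.02, 7.34, 5.61, 2.16, 17.0 and 23.7 at 12 weeks, a time change of −0.60 that was not called.

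Promoter sequence was read for the 12 lowest genes named by rule, and the stretches that hold the motif are shown because these genes are the lowest described here. RefSeq promoters of build GRCr8 were at hand for 9 of them, and 4 hold the letters TATAAA, a form of the TATA box, in the 120 bases before the annotated start, read on both strands. Over all 7863 compared genes with an entry there 3.42% hold it in that window, over all 27457 RefSeq promoters listed 6.81%, over 143 of the lower genes 9.09%, over 75 of the higher genes 6.67%, in 2 of 10 of the 12 highest genes named by rule that have an entry, and over 21 collagen and collagen-processing genes 0%. The 4 stretches are printed 5′ to 3′ along the gene's strand, with TATAAA in capitals. They lie at chr2:140677941-140678060 (plus strand) for Postn, chr16:18231280-18231399 (minus) for Plvap, chr4:112419656-112419775 (plus) for Reg3b and chr15:33876896-33877015 (minus) for Mcpt1l1.
Postn: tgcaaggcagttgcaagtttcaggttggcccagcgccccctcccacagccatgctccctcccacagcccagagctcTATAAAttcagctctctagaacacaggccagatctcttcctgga
Plvap: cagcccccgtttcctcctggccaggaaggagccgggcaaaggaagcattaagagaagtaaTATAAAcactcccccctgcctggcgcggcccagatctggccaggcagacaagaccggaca
Reg3b: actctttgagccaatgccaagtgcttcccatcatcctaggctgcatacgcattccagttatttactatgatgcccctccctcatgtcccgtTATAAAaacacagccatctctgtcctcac
Mcpt1l1: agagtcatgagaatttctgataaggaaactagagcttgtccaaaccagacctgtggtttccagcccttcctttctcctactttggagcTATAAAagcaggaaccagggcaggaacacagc
The letters start 44 bases before the annotated start in Postn, 60 in Plvap, 29 in Reg3b and 32 in Mcpt1l1. A match is a description of the letters and not evidence of use.

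Endothelial markers as a group lay near the median gene, at −0.13 over 22 members (−0.38 in MI), with 1 lower and none higher. That 1 was Plvap, a protein of the diaphragms of fenestrated capillaries, with a 6-week mean of 9.34, 12-week values of 0.159, 1.58, 1.25, 0.443, 4.38 and 1.52, and a time change of −2.50 (−3.14 without replicate 5). Egfl7, a secreted endothelial factor, had −0.51, and the apelin receptor Aplnr had 0.71 in MI+TRD and −0.46 in MI. Of 12 epicardial and mesothelial markers 2 keratins were lower, Krt18 at −1.48 and Krt8 at −1.09, or −2.13 and −1.71 without replicate 6. Their 12-week values in MI+TRD ran from 0.166 to 3.98 and from 0.221 to 7.70, against 6-week means of 4.22 and 6.35. In MI both keratins fell further, from means of 3.72 to 0.303 for Krt18 and 6.67 to 0.364 for Krt8. No MI time change was computed for them, since these 12-week MI means lay below the minimum of 1. The membrane glycoprotein Gpm6a, also a mesothelial marker, was higher: its 6-week mean was 3.24, its 12-week values were 8.70, 10.3, 7.33, 6.36, 10.8 and 5.31, all above it, and its time change was 1.42 against −0.14 in MI.

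The lowest time change of all named genes was that of H19, an imprinted long noncoding RNA that is abundant in fetal tissue. It had a 6-week mean of 14.7 and 12-week values of 0.212, 2.77, 1.1, 0.277, 4.14 and 2.39, all below it, a time change of −2.93, or 7.60-fold lower. In MI its mean hardly moved, from 4.61 to 4.33. The 12-week MI libraries ran from 1.62 to 11.5, with 1 of 6 above the 6-week MI mean. Of 19 genes of the IGF axis and growth factors 2 were lower and none higher, both binding proteins that sequester insulin-like growth factors. Igfbp4 went from 203 to 33.5, 72.2, 61.7, 41.2, 105 and 100.4, a time change of −1.47, and Igfbp6 from 30.9 to 11.8 ± 5.28 (SD, n = 6), one of −1.30. In MI these were −1.04 and −0.84. Cell cycle genes had a median of −0.34 over 26 members in MI+TRD and of −0.34 over 25 in MI. Of them 4 were at least 2-fold lower in MI+TRD and none in MI. The named ones were the ribonucleotide reductase subunit Rrm2 (−1.41, and −2.01 without replicate 6), cyclin B2 (Ccnb2, −1.27) and the mitotic kinase Cdk1 (−1.22). Their 6-week means were 4.07, 2.63 and 2.55, and their 12-week means of 1.44, 1.02 and 1.03 lay close to the minimum of 1.

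**Figure D3:**
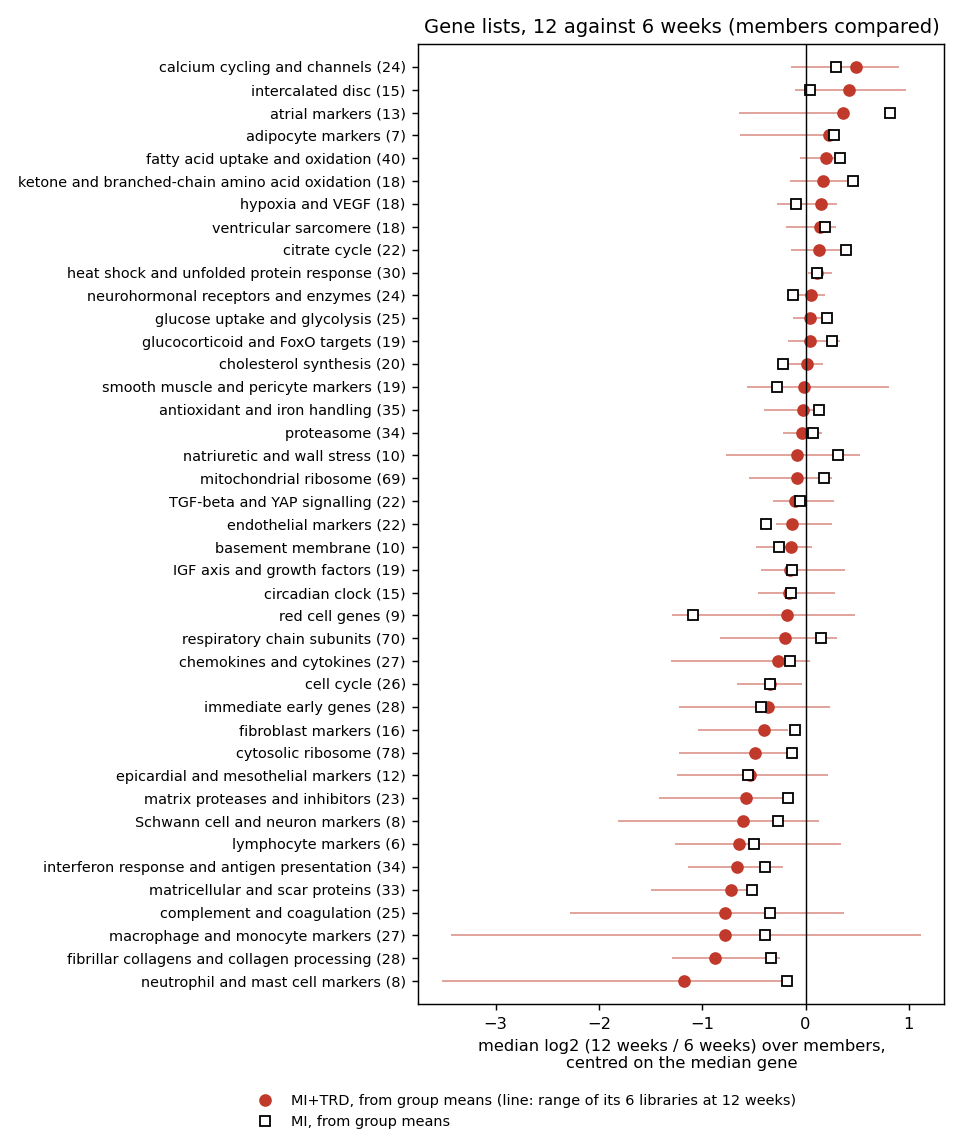
Median time change over the members of each gene list with at least 5 members compared (number in brackets), in log2 units centred on the median gene. Filled circles are MI+TRD, lines the range of its 6 libraries at 12 weeks, and open squares MI. Most matrix and immune lists lie in the lower part, down to −1.18, with calcium cycling at the top at 0.49, and the line of the macrophage list spans −3.43 to 1.11.

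Of the genes named as higher, 3 act in the handling of fuel. Pdk4 (chromosome 4, 30546772 to 30556775), the kinase that turns off pyruvate dehydrogenase and so spares glucose, had a 6-week mean of 24.7. Its 12-week values were 89.1, 139, 100.2, 95.2, 71.6 and 52.5, a mean of 91.2 ± 29.2 (SD, n = 6), all above the 6-week mean. The time change was 1.97, or 3.93-fold, and in MI the means went from 29.4 to 102, one of 1.75. Ppp1r3a, the muscle subunit that targets protein phosphatase 1 to glycogen, had 11.2 at 6 weeks and 45.2, 27.4, 35.1, 40.7, 51.3 and 16.4 at 12 weeks, a time change of 1.78 against 0.63 in MI. Prkaa2, the catalytic α2 subunit of AMP-activated kinase, had 8.59 and then 39.7, 20.5, 25.7, 29.7, 29.3 and 9.52, a time change of 1.67 against 0.97 in MI. In all 3 genes each 12-week library lay above the 6-week mean.

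The fatty acid list moved little as a whole. Of 40 genes of fatty acid uptake and oxidation 1 was higher, Pdk4, and none lower, and the median was 0.19 (0.34 in MI). The uncoupling protein Ucp3 and the nuclear receptor Ppara, which switches on fat oxidation, lay just under the 2-fold line at 0.98 and 0.93. Ucp3 had 8.25 at 6 weeks and 19.3, 21.7, 7.86, 18.5, 8.81 and 15.7 at 12 weeks, and Ppara 7.22 and then 17.8, 8.66, 8.48, 17.9, 19 and 5.80, so for Ppara 1 library lay below the 6-week mean. The citrate cycle had a median of 0.13 over 22 members, with no member called and 0.39 in MI. Its Dlat, the E2 core of pyruvate dehydrogenase, had 92.9 at 6 weeks and 97.3 to 148 at 12 weeks, a time change of 0.55.

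Calcium cycling and ion channels had the highest list median, 0.49 over 24 members (0.29 in MI), with 23 above the median gene, 1 called higher and none lower. The 1 called was the ryanodine receptor Ryr2 (chromosome 17, 65533998 to 66130713), the calcium release channel of heart muscle. Its 6-week mean was 519 and its 12-week values were 1368, 799.9, 965, 1295, 1284 and 553, all above the 6-week mean after centring, a time change of 1.1 against 0.62 in MI. The sarcoplasmic calcium pump Atp2a2 had 4622 and then 7892, 5133, 6219, 8812, 8124 and 3523, with replicate 6 below the 6-week mean, and a time change of 0.61 (0.39 in MI). The channel genes Cacna2d1 and Kcnj3 had 0.92 and 0.79. The list's median was 0.91, 0.86 and 0.53 in replicates 1, 4 and 5 and 0.20, 0.35 and −0.14 in replicates 2, 3 and 6, and 0.17 without replicates 1, 4 and 5.

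The intercalated disc, which couples neighbouring muscle cells, had a median of 0.43 over 15 members (0.04 in MI), none of them called. Its highest members were Xirp2, an actin-binding protein of the disc, at 0.82, N-cadherin (Cdh2) at 0.80 and Nrap, which anchors actin there, at 0.80. Cdh2 went from 139 to 270, 171, 212, 259, 318 and 130, so 5 libraries lay above the 6-week mean. The disc list was also higher in replicates 1, 4 and 5, at 0.57, 0.69 and 0.97, than in replicates 2, 3 and 6, at 0.09, 0.24 and −0.10. Of 18 ventricular sarcomere genes none was called, and the median of 0.14 lay close to the 0.19 of MI. The giant M-band proteins Myom1 and Myom2 led it at 0.74 and 0.66.

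The natriuretic peptides, made by stretched heart muscle, had time changes of opposite sign in MI+TRD and MI, short of 2-fold. Without replicates 1, 4 and 5 the MI+TRD values were 0.16 for Nppa and 0.15 for Nppb. Among the libraries then left, replicate 2 alone lay above the 6-week mean of either gene. Without replicate 2 the MI+TRD values were −1.60 for Nppa and −0.69 for Nppb. Atrial natriuretic peptide (Nppa) had a 6-week mean of 1098 and 12-week values of 48.3, 2181, 291, 180, 276 and 899, with replicate 2 alone above the mean. Its time change was −0.68, against 0.76 in MI, and −1.60 without replicate 2. In MI 3 of 6 libraries lay above the 6-week Nppa mean of 1198, with values from 146 to 6757. Nppa is also a gene of atrial muscle, and replicate 2 was the library with the most of the atrial light chains Myl4 (472) and Myl7 (618). The median over 13 atrial markers ran from −0.65 to 0.42 in the MI+TRD libraries, highest in replicate 2, and from −0.03 to 1.96 in those of MI, and the part of atrial tissue in the Nppa values was not tested. Brain natriuretic peptide (Nppb) had 210 and then 76.3, 299, 161, 133, 58.3 and 184, a time change of −0.38 against 0.50 in MI. For Nppb 5 of 6 MI libraries lay above their 6-week mean, and 5 of 6 MI+TRD libraries below theirs. The fetal and adult contractile genes named next were all short of 2-fold. α-Myosin heavy chain (Myh6) had 0.50 (0.36 in MI), β-myosin heavy chain (Myh7) 0.24 (−0.04 in MI), skeletal actin (Acta1) −0.37 (−0.21) and the stretch-responsive Ankrd1 0.11 (0.10). Myh6 had 10969 at 6 weeks and 20205, 11260, 13477, 20825, 14538 and 6953 at 12 weeks, and Acta1 1080 and then 515, 478, 865, 533, 1909 and 410.

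**Figure D4:**
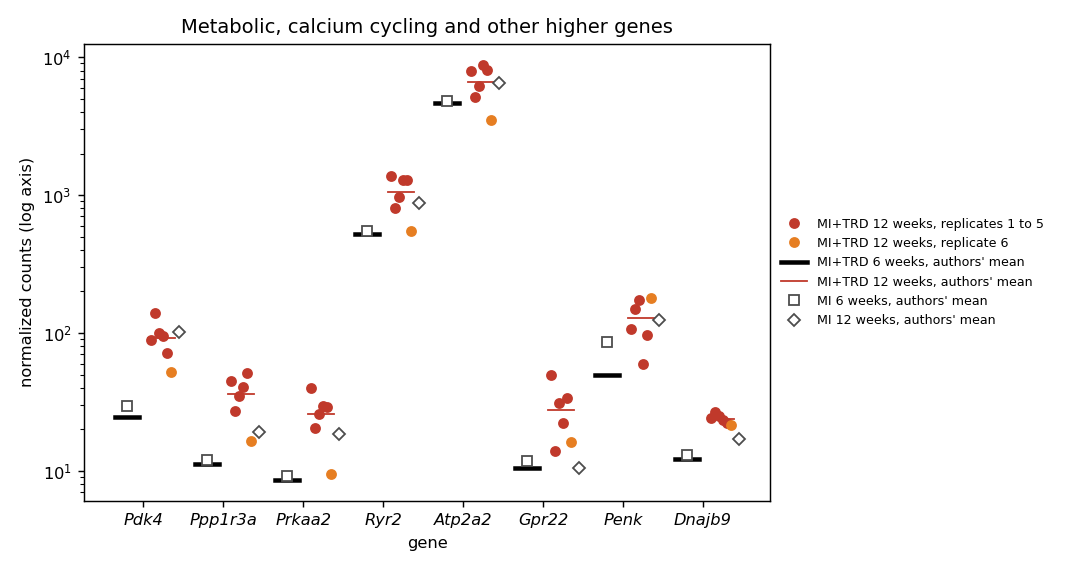
Normalized counts (log axis) of 8 genes with higher means at 12 weeks, with symbols for 6-week means, 12-week libraries and MI means as named in the legend. All 6 libraries lie above the black 6-week bar for Pdk4, Ppp1r3a, Prkaa2, Ryr2, Gpr22, Penk and Dnajb9, and for Atp2a2 replicate 6 lies below it.

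Of 24 neurohormonal receptors and enzymes 2 were higher, Gpr22 and Adra1a, and none was lower, with a median of 0.05. Gpr22, an orphan receptor of heart muscle, had a 6-week mean of 10.6 and 12-week values of 49.6, 13.9, 30.8, 22.3, 34.0 and 16.3, all above it, for a time change of 1.49 against −0.21 in MI. Proenkephalin (Penk), the precursor of opioid peptides, had 49.9 and then 108, 149, 175, 59.7, 97.0 and 178, a time change of 1.45 (0.46 in MI). Lifr, the receptor of leukemia inhibitory factor, had 3.93 and then 18.8, 4.56, 8.92, 14.3, 8.77 and 4.85, a time change of 1.44 (0.79 in MI). The α1A-adrenergic receptor Adra1a was at 1.18 and the natriuretic peptide clearance receptor Npr3 at 0.95. The other genes at the top were Moap1 (1.85, a modulator of apoptosis), Arhgap26 (1.62, a GTPase-activating protein), Nfib (1.53, a transcription factor), Zbtb20 (1.44, a zinc finger repressor) and Nebl (1.41, a nebulin-like protein of the Z-disc). In MI these 5 were at 0.86, 0.76, 0.61, 1.09 and 1.22.

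Gene span went along with the time change in the MI+TRD group means and not in the MI group means. Single MI libraries were not split by span. The median time change was −0.26 for 1354 genes spanning under 5 kb and 0.20 for 1252 genes of 100 kb or more, against −0.02 and 0.00 in MI. Higher genes had a median span of 57.6 kb and lower genes one of 11.0 kb, against 21.4 kb for all. Of the 6 libraries, replicates 1, 4 and 5 carried this difference, at 0.34, 0.34 and 0.42 for the long genes, while replicates 2, 3 and 6 lay between −0.05 and 0.01. Its part in the results was not tested. Without those 3 libraries the list median was −0.77 against −0.88 for the collagens and 0.08 against −0.78 for the macrophage markers. Of the 66 called genes named, 27 then came under 2-fold, as listed above. The mean then rests on replicates 2, 3 and 6, so replicate 6 weighs more in it. The macrophage median was −0.95 in replicate 2, −2.12 in replicate 3 and 1.11 in replicate 6. Loss of replicates 1, 4 and 5 and the larger weight of replicate 6 cannot be told apart here.

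**Figure D5:**
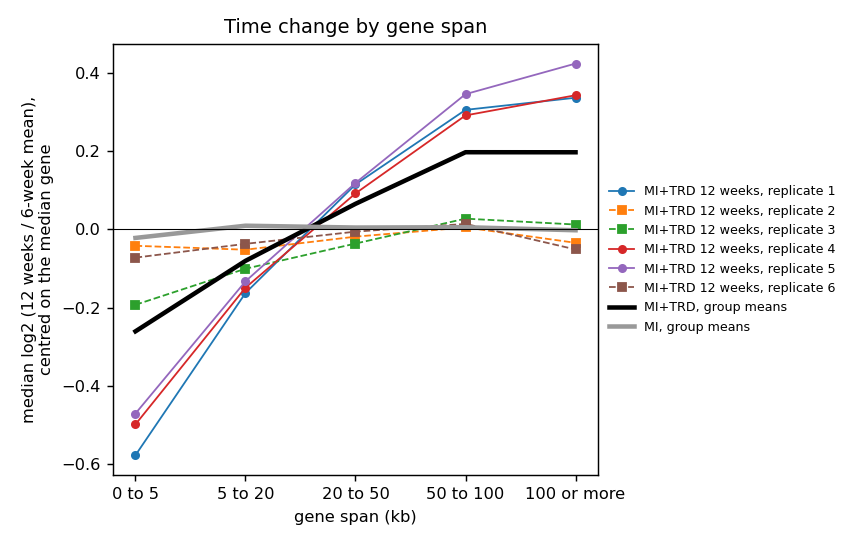
Median time change (y axis, log2 units) by class of gene span (x axis, kb) in each of the 6 MI+TRD libraries at 12 weeks, in the MI+TRD group means (black) and in the MI group means (grey). Replicates 1, 4 and 5 run from −0.58, −0.50 and −0.47 in the shortest class to 0.34, 0.34 and 0.42 in the longest, and the MI line stays near 0.

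Ribosomal and respiratory genes were lowest in the same libraries. All 78 cytosolic ribosomal protein genes had a time change below 0, with a median of −0.48 (−0.13 in MI). Of them 1 was at least 2-fold lower, Rps28 at −1.09, against 2.09% over all genes. The list's median in replicates 1 to 6 was −1.23, −0.13, −0.35, −1.04, −0.63 and −0.10, and it was −0.15 without replicates 1, 4 and 5. Rps23 went from 132 to 28.1, 85.2, 79.1, 32.6, 58.5 and 90.5, and Rpl35a from 38.0 to 6.84, 26.1, 25.3, 12.5, 14.3 and 28.9. The 70 respiratory chain subunits had a median of −0.20 (0.15 in MI) with none called, at −0.67, −0.75 and −0.83 in replicates 1, 4 and 5 and 0.31, 0.25 and −0.06 in replicates 2, 3 and 6. Without replicates 1, 4 and 5 that median was 0.24, so its sign depends on them. The cytochrome oxidase subunits Cox6a1 and Cox8b were the lowest, both at −0.68, and cytochrome c (Cycs) the highest at 0.81, with 280 at 6 weeks and 436, 569.5, 559, 454, 376 and 379.9 at 12 weeks. The mitochondrial ribosome had a median of −0.08 over 69 genes (0.18 in MI), and its lowest member Mrpl54 was at −0.82 (0.02 in MI).

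The remaining lists had few or no called members. Lymphocyte markers had a median of −0.65 over 6 members (−0.50 in MI) and ran from −1.27 to 0.34 over the libraries, highest in replicate 6, with none called. Smooth muscle and pericyte markers were at −0.01, red cell genes at −0.18, adipocyte markers at 0.23 (−0.21 with the median of the libraries in place of their mean), and each of these lists had at most 1 called member. Skeletal muscle and lung markers could be read on 2 genes only, at a median of −0.33. Glucose uptake and glycolysis had a median of 0.04, ketone and branched-chain amino acid oxidation 0.16, cholesterol synthesis 0.01, the proteasome −0.03 and the hypoxia and VEGF list 0.15, and none of their members was called. The wall stress list was at −0.08, glucocorticoid and FoxO targets at 0.04 with Pdk4 higher, and antioxidant and iron genes at −0.02 with Hmox1 and Ftl1 lower.

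Clock, early response and stress genes gave single differences. Of 15 clock genes 2 were lower: the output transcription factor Dbp, with 28.2 at 6 weeks and 12.8, 5.63, 9.78, 5.86, 3.24 and 21.3 at 12 weeks (time change −1.44; −0.05 in MI), and the repressor Ciart at −1.23. Clock itself, the activator of the loop, was at 0.82, with 29.4 at 6 weeks and 35.0 to 59.6 at 12 weeks. Hours of tissue collection are not given in the labels used here. Of 28 immediate early genes 2 were lower, the cytokine signalling inhibitor Socs3 (−1.11) and the transcription factor Egr2 (−1.05, and −1.63 without replicate 6), and the median was −0.37 (−0.43 in MI); Klf2, a flow-responsive factor, was at −0.69. Among 30 chaperones of the heat shock and unfolded protein responses 1 was higher. Dnajb9, a chaperone of the endoplasmic reticulum, had the tightest values of the called genes named: 12.1 at 6 weeks and 24.1, 26.6, 25.1, 23.6, 22.1 and 21.5 at 12 weeks, a time change of 1.06 (0.34 in MI). Manf and Sdf2l1, of the same compartment, were at −0.84 and −0.82.

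Of the 9803 genes with all 4 means of at least 1, the MI+TRD change was at least 2-fold above the MI change in 83 (0.847%) and at least 2-fold below it in 64 (0.653%). The difference between the 2 changes was not tested. Among the genes named for this difference, several were set by 1 library. The atrial myosin light chains Myl4 and Myl7, markers of atrial muscle, had 12-week MI+TRD values from 0.371 to 472 and from 0.106 to 618, with replicate 2 highest in both, and MI values up to 2035 and 3253. Their MI+TRD changes of 1.30 and 1.1 became −2.29 and −2.65 without replicate 2, against MI changes of 4.91 and 5.23. In MI+TRD the other 5 libraries lay at or below 26.4 for Myl4 and 35.4 for Myl7, with 4 of them at or below 5.95 and 2.44. Of 13 atrial markers 2 were higher, these 2, and the median was 0.37 (0.82 in MI); the T-box factor Tbx5 was at 0.81. Calponin (Cnn1) and smooth muscle myosin (Myh11), markers of smooth muscle, were set by replicate 5, with 48.4 and 406 against at most 4.70 and 140 in the others. Their changes were 1.31 and 0.84 with it and −0.65 and −0.01 without it, and the coactivator of smooth muscle genes Myocd had 0.78 with and 0.50 without it. The α-globin gene Hba2 had values of 93.8, 0.502, 2.80, 245, 485 and 1.36 against a 6-week mean of 28.5, high in replicates 1, 4 and 5 only, and a change of 2.37 (1.37 without replicate 5, −4.07 without replicates 1, 4 and 5) against −5.00 in MI. Its near-identical copy Hba1 had −0.64 and Hbb −0.61, with −1.09 and −0.96 in MI. Reads of these globin copies may be split between them, so the Hba2 values are uncertain. Gfra3, a receptor of glia and neurons, was not called, at −0.96.

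The device effect at each time stands in the authors' comparisons, which share the MI+TRD means used above and are given beside them without any test of overlap. In the authors' deposited table for 6 weeks, 0 of 11283 genes had a step-up false discovery rate below 0.05 (0%), the lowest being 0.0989, and 961 had an unadjusted p below 0.05. In the authors' deposited table for 12 weeks 332 genes passed (2.94%), with 2721 below an unadjusted p of 0.05. For Postn the authors' deposited tables give a ratio of MI+TRD to MI of 9.48 at 6 weeks (false discovery rate 0.319) and 2.15 at 12 weeks (0.656). The authors' deposited tables give 4.12 (0.343) and 2.28 (0.628) for Col1a1, and 6.05 (0.286) and 1.49 (0.728) for Hmox1. For H19 the authors' deposited tables give 3.19 (0.708) at 6 weeks and 0.419 (0.152) at 12 weeks. The ratio of Gpr22 in the authors' deposited tables was 0.903 (0.952) and then 2.64 (0.0703), and that of Nppb 0.967 (0.989) and then 0.475 (0.0612). Of the genes named here, 5 passed at 12 weeks in the authors' deposited table: Tnfrsf11b, with ratios of 5.08 (0.364) at 6 weeks and 7.30 (0.0456) at 12 weeks, Mrpl54 (0.0381), Egfl7 (0.0435), Gfra3 (0.0492) and Manf (0.0499).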

How the data were processed

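Polyadenylated RNA of rat heart muscle was sequenced on an Illumina instrument, as the labels' protocols state. Partek and the genome build rn6 are named in the submitters' processing notes. Not given in the sources used here are the aligner, the counting rules and their use of strand, the scaling, and the statistical model. Per the file headers, the authors deposited a signal for the 12-week groups, which is a normalized count of each gene in each library. They also deposited 2 tables of comparisons with group means, a linear ratio (fold of MI+TRD over MI) and a p-value with its false discovery rate. Both tables list the same 11283 genes in the same order, and 10723 of them have values per library. Of the 6-week groups the means alone were used here, and no column lacked a sample.

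The tables were joined on the gene symbol, and the log2 ratio of the MI+TRD means was centred on the median of genes with both means of at least 1. Each 12-week library was multiplied by 1 factor so that the libraries average to the authors' mean. Counts of libraries above or below the 6-week mean are taken after centring, and p-values were taken from the authors alone. Python 3.11.15, pandas 2.3.3, numpy 2.4.6 and matplotlib 3.10.9 were used, and the steps were tested on simulated data. The precision of a 12-week mean rests on 6 libraries, whose replicates are taken to be separate rats. Among values of up to 20 steps, at least 97.2% per library lay within 0.1 of a whole multiple of the library's smallest value.

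Named are the 12 highest and 12 lowest time changes among genes with both means of at least 1, the larger at least 5, a gene name and all 6 libraries on 1 side, up to 3 members of each of 43 lists by size of change, 15 cardiac and scar genes in any case, and up to 3 genes each way by the difference from MI. Not all genes the rule names are reported. The members and lists were chosen with earlier results of these data known. Alternatives to the centring, minimum, pseudocount, kind of mean and libraries were tried, and 1, keeping genes with values per library only, was chosen after seeing the data. Gene coordinates are those of the deposited table. Near-identical and overlapping genes cannot be separated without the counting rules.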

Additional observations from a re-analysis of the deposited data

Results flagged for a closer look

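At 12 weeks 36 of 153 sets of 6 MI+TRD values (110 genes and 43 lists) held a library farther from the others than Dixon's 95% limit. That limit flags about 1 in 20 groups of independent, normally distributed values. The gene values here were counts not put on a log scale, many were of genes chosen for large changes, and genes and lists overlap. The number flagged is therefore a description, and no excess over chance can be read from it. In 24 of the 36 sets the library was replicate 6, and in 22 of those it was the highest. Its scar values were 41.7 for Postn, 1022 for Col1a1, 582 for Col1a2, 1301 for Fn1, 13.1 for Lox, 42.3 for Timp1, 33.2 for Mmp14, 8.26 for Cthrc1, 6.71 for Thy1 and 10.3 for C1qtnf6. Its immune values were 14.4 for Trem2, 17.7 for Tyrobp, 84.2 for C1qa, 4.97 for Cma1, 19.3 for RT1-DMa, 5.76 for Ciita, 61.9 for Cxcl2 and 347 for Ftl1. It was also highest for Rrm2 (3.90), Ccnb2 (2.43) and Sdf2l1 (13.2), and lowest for Gfra3 (1.36). Over gene lists it had the highest collagen median (−0.25; the others −1.29 to −0.92) and the lowest ventricular sarcomere median (−0.19; the others 0.15 to 0.30).

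Replicate 5 was highest for Wisp2 (13.9), Serpina3n (9.05), Plvap (4.38), Xirp2 (1016), Acta1 (1909), Myh11 (406), Cnn1 (48.4) and the TGF-beta and YAP list (0.27). Replicate 2 was highest for Reg3b (7.46), Myl4 (472) and Myl7 (618), and replicate 1 lowest for Hbb (88.3; the others 180 to 211).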

How the results depend on the processing

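No paired analysis was possible because the 6-week groups enter as the authors' means only, so no fit across time could be made. Of the counts, 98 higher and 209 lower genes in MI+TRD, and 83 above and 64 below the MI change, these moved by over 1.5 times. A minimum of 5 gave 34, 91, 28 and 22, a minimum of 10 gave 19, 68, 19 and 10, and a pseudocount of 1 gave 42, 125, 35 and 33. A pseudocount of 0.5 gave 64 higher and 49 above, a minimum of 0.5 gave 113 below, and no centring gave 42 above and 140 below. The median of the 12-week libraries gave 510 lower and 256 below, and their geometric mean 503 lower, 54 above and 255 below. Without replicates 1, 4 and 5 there were 55 higher, 102 lower and 42 below. Leaving out 1 library at a time gave 76 to 150 higher, 142 to 556 lower, 65 to 111 above and 49 to 290 below, with the most higher and lower genes without replicate 6. Of 98 higher genes 95, and of 209 lower genes 206, were called without replicate 6, and 33 and 59 without replicates 1, 4 and 5.

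Of 66 called genes 5 changed direction in at least 1 alternative, and of the other 44 reported 10 changed sign: Ankrd1, Aplnr, Cox8b, Fn1, Myh11, Myh7, Myocd, Nppa, Nppb and Tgfb2. With the median and with the geometric mean of the libraries Myl4 was at −3.21 and −2.58, Myl7 at −4.39 and −3.52, Cnn1 at −0.68 and −0.0286 and Cxcl2 at −0.73 and −1.24, and with the geometric mean Hba2 was at −0.64. Without replicates 1, 4 and 5 Cnn1 was at −0.86 and Hba2 at −4.07. With 1 library left out Myl4 ran from −2.29 to 1.57, Myl7 from −2.65 to 1.36, Cnn1 from −0.65 to 1.53 and Cxcl2 from −1.23 to 1.94. Of 66 called genes, 30 came under 2-fold in at least 1 alternative. The medians of the collagen, matricellular, protease, complement and interferon lists kept their sign in 20 of 20 alternatives, and that of the macrophage list in 19, without replicates 1, 4 and 5 excepted. Their size was kept less well. At its weakest the median was −0.77 for the collagen, −0.58 for the matricellular, −0.31 for the interferon, −0.25 for the protease and −0.12 for the complement list. A join by coordinates was not run, since the tables of comparisons hold symbols only. The causes were not tested. The depth of the 6-week libraries is not known here, which limits what a low 6-week mean can show.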

Other observations

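One gene with a 6-week MI+TRD mean of at least 5 was left out by the minimum, since its 12-week mean lay below 1. This was Prss35, a secreted serine protease, with authors' MI+TRD means of 5.05 at 6 weeks and 0.971 at 12 weeks, and authors' MI means of 0.607 and 0.240.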
